A study of Mus musculus with 3 samples.

Results

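Accessible chromatin around the cytokine genes Ifng and Il22 and the Il22 copy Iltifb was described in 3 fractions of mouse CD4+ T cells. The assay was ATAC-seq: a transposase cuts and tags DNA where chromatin is open. Peaks sharing 1 bp or more between the 3 libraries were joined into regions. A region was taken where its nearest protein-coding gene span, at most 100 kb away, was that of Ifng, Il22 or Iltifb. The rule found 24 of 57457 regions, of which 20 belonged to Ifng, 2 to Il22 and 2 to Iltifb. Among called regions the rule chose by position only. A region exists only where a peak was called in at least 1 library, so one called in a single library entered through that library.

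Every fraction came from the colon-draining mesenteric lymph nodes of wild-type C57BL/6J mice that had received naive CD4+ T cells from the spleens of CBir1 transgenic mice. The CBir1 T cell receptor recognises a bacterial flagellin, and the donor cells carried CellTrace Violet, a dye diluted with each division. The 4 recipients were given 2% dextran sulfate sodium (DSS) for 7 days, which injures the colon lining, and 1 mg/kg of FTY720, which stops lymphocytes from leaving lymph nodes, on each of days 7, 10 and 13. Nodes were collected on day 14. The fractions were divided CBir1 cells (dim for the dye), undivided CBir1 cells (bright for the dye) and the recipients' own CD4+ cells, called polyclonal here. Per the labels, cells of 2 mice were pooled and pools were made in duplicate, yet 1 peak list per fraction was analysed, so no difference below has a replicate check and none was tested. No fraction came from a mouse without DSS and FTY720. The CBir1 cells share a single transgenic receptor and the polyclonal cells do not, so receptor, origin and activation cannot be told apart in comparisons with polyclonal cells. A larger share of cells with an open region and a more open region per cell cannot be told apart either.

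The divided, undivided and polyclonal libraries held 47963, 41876 and 44426 peaks, with median summit pileups of 31, 30 and 27 fragments. A pileup is the number of sequenced fragments that overlap a peak's summit, recovered here from the deposited fold and p-value of the peak. The sources used here give no read totals. The lowest local background, a stand-in for depth, was 1.21, 0.808 and 0.865 fragments in divided, undivided and polyclonal cells, so by this measure the divided library exceeded the undivided one in depth by a factor of 1.496 and the polyclonal one by a factor of 1.40. The 7 T cell markers listed as coding genes, among them Cd3e, Cd4 and Lck, had a peak within 1 kb of a gene end in each library. Of 8 NK and innate lymphoid markers, 2 (Id2 and Il1rl1) had such a peak in each library, and Ncr1 had none. Of 2 CD8 T cell markers, 1 (Cd8b1) had such a peak in each library. Of 6 B cell markers, 3 (Ebf1, Blk and Cd79a) had such a peak in divided cells, 1 (Cd79a) in undivided cells and 2 (Ebf1 and Cd79a) in polyclonal cells, while Ms4a1 had none in any library. Of 4 myeloid markers, 1 had such a peak in divided cells, 2 in undivided cells and 2 in polyclonal cells.

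Interferon-γ, the product of Ifng, is the main cytokine of Th1 cells and activates macrophages and antigen presentation. Interleukin-22, the product of Il22, is made by Th17 and Th22 cells and innate lymphoid cells, and acts on epithelial cells, where it promotes barrier repair and antimicrobial defence in the gut. Iltifb is a copy of Il22 that some mouse strains carry. Ifng is known to be controlled in T cells by conserved noncoding elements spread over a long distance on both sides of the gene, and the noncoding RNA Ifngas1, transcribed toward Ifng from its downstream side, is known in mouse Th1 cells to favour Ifng expression.

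In mouse build mm10 (RefSeq table of GRCm38.p6), Ifng (gene ID 15978) spans chr10:118441046-118445894 on the plus strand, Il22 (gene ID 50929) chr10:118204584-118210047 on the plus strand, and Iltifb (gene ID 116849) chr10:118289629-118295038 on the minus strand. The transcription start from which Il22 distances are given is at position 118204964, inside the Il22 span, while the starts of Ifng and Iltifb are the outer ends of their spans. Iltifb begins 79.6 kb past the end of Il22, and Ifng begins 146 kb past Iltifb. Ifngas1 lies at chr10:118502035-118556525 on the minus strand. The table gives spans without exons, so regions inside a gene are not divided into exons and introns.

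The Ifng promoter is shown because its whole printed length lay inside a peak called in divided cells alone, at chr10:118440666-118441084. These are the 250 bases before the transcription start, chr10:118440796-118441045, plus strand, from RefSeq on GRCm38.p6, with the only match to the STAT motif TTCNNNGAA in capitals.
Ifng promoter: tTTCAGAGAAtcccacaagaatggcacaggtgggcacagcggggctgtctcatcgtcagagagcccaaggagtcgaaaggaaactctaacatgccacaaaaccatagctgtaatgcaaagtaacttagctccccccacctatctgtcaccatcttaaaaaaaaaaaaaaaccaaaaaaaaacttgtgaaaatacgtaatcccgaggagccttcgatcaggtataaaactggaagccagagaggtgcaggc
The match begins 249 bases before the start, and 8.30% of the 32851 promoter windows in the table (250 bases before to 50 after a start, both strands searched) hold this motif. The ROR motif AGGTCA, found in 16.3% of windows, began 16 bases after the Ifng start. The window held no match to the T-box core GGTGTG, found in 19.0% of windows. It also held none to the AP-1 motif TGANTCA (7.81%), the RUNX motif TGTGGT (16.8%), the AHR core GCGTG (32.4%) or the NFAT motif TGGAAA (21.4%). These are matches of letters and were not tested as binding sites.

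Il22 and Iltifb are shown side by side because near-identical letters bear on how reads at either gene were placed. The stretches lie just before each gene's transcription start, at chr10:118204885-118204941 on the plus strand for Il22 and chr10:118295039-118295095 on the minus strand for Iltifb, with the 3 bases that differ in capitals.
Il22: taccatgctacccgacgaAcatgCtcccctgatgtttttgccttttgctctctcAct
Iltifb: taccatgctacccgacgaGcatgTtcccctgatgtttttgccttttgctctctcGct
The 2 stretches are identical at 54 of 57 bases, and the longer aligned stretch that holds them at 98 of 102 bases (96.1%). The treatment of reads that map to both copies is not stated in the labels or notes, so peaks at Il22 and Iltifb are uncertain as to the copy they come from. In their promoter windows the NFAT motif began 237 bases before the Il22 start and 130 bases before the Iltifb start, and the ROR motif began 115 bases before the Iltifb start. No other motif of the 7 searched had a match in either window. All 3 genes were found in the promoter table by symbol.

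The Ifng locus held more called regions in divided cells than in the other fractions, and the difference lay mostly at the gene itself and downstream of it. Of its 20 regions, 17 were called in divided cells, 6 in undivided cells and 10 in polyclonal cells. Over the whole series, the divided, undivided and polyclonal libraries held 47963, 41876 and 44426 peaks for 57457 regions. Set beside these, the divided count at Ifng was not high, and the undivided and polyclonal counts were low. The called Ifng peaks covered 7296 bp in divided cells, 2326 bp in undivided cells and 3778 bp in polyclonal cells. Their median pileup was 20, 15 and 16.5 fragments in divided, undivided and polyclonal cells. A total of 10 regions (50%) were called in divided cells alone, where 14.3% of all regions were, and 6 (30%) were called in all 3 libraries, where 56.9% of all regions were. Polyclonal cells alone held 3 regions, divided and polyclonal cells shared 1, and no region was called in undivided cells without also being called in both other fractions.

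**Figure D1:**
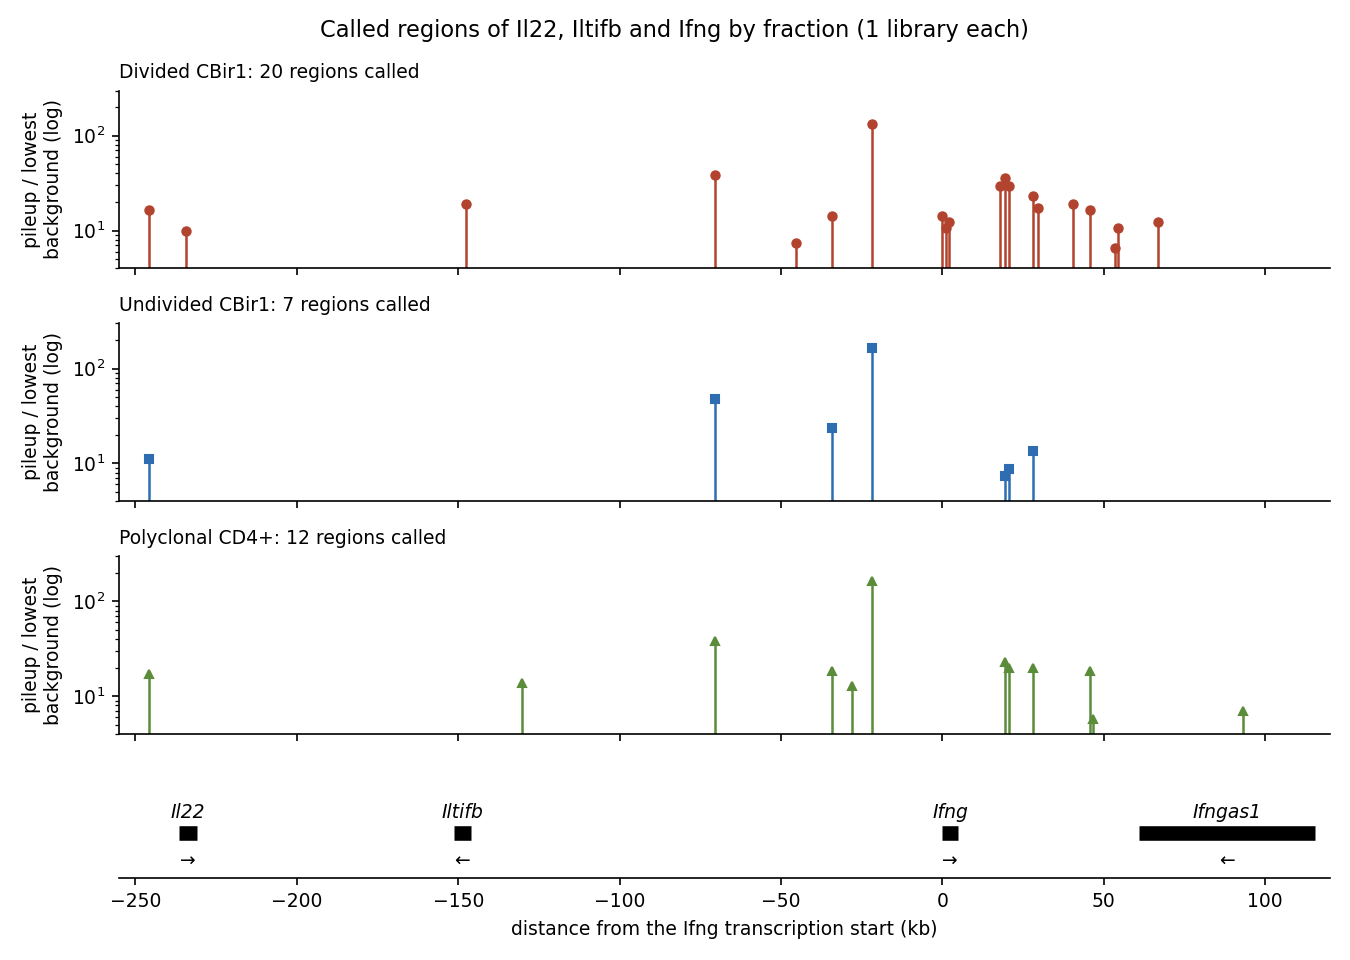
Regions of Il22, Iltifb and Ifng called in each fraction (1 library each), by distance in kb from the Ifng transcription start, with summit pileup over the library's lowest background on a log axis; stems only mark position, and black bars with arrows are genes and their direction. Divided cells held 20 regions, undivided cells 7 and polyclonal cells 12, and the peaks at the Ifng gene appeared in divided cells only.

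The tallest peak of the locus was open in every fraction. It lay 21.9 kb upstream of the Ifng start, at chr10:118418726-118419660, and its pileup was 159 fragments in divided cells, 134 in undivided cells and 143 in polyclonal cells. Its −log10 q, which is the peak caller's confidence within its own library, was 142, 125 and 130 in divided, undivided and polyclonal cells. The summits of the 3 libraries lay within 51 bp of each other. Relative to each library's lowest background, the pileup was 0.793 times as high in divided as in undivided cells (95% interval 0.626 to 1.01), and 0.796 times as high in divided as in polyclonal cells (0.631 to 1.01). Undivided and polyclonal cells gave a ratio of 1.00 (0.787 to 1.28). These intervals, and all that follow, are Poisson intervals that cover counting error only, and each of these 3 includes 1.

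Some other regions upstream of Ifng were also called in all 3 libraries. At chr10:118370421-118370790, 70.4 kb upstream, the pileup was 46 in divided cells, 39 in undivided cells and 33 in polyclonal cells, with summits within 7 bp. At chr10:118406914-118407259, 34.1 kb upstream, it was 17 in divided cells, 19 in undivided cells and 16 in polyclonal cells. In both regions the 3 libraries overlapped within their counting intervals. In all, 3 of the 5 upstream regions were called in all 3 libraries, which is near the share of all regions called so (56.9%). Divided cells alone had a peak of 9 fragments 45.4 kb upstream (−log10 q 4.08), and polyclonal cells alone had a peak of 11 fragments 28.1 kb upstream (−log10 q 7.46).

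At the Ifng gene the fractions separated by presence. Its 3 regions were all called in divided cells and in neither other fraction. The promoter peak, printed above, reached 17 fragments (−log10 q 9.16) in divided cells, with its summit 185 bp before the start. Inside the gene, chr10:118442053-118442304 had its summit 1069 bp past the start with a pileup of 13, and chr10:118443133-118443392 had its summit 2127 bp past the start with a pileup of 15, again in divided cells. At equal signal over background, the promoter peak would have given 11.4 fragments in undivided and 12.2 in polyclonal cells. The lowest pileup called at a like background was 6 in each, so a peak of equal signal could have been called in both libraries. For comparison, the start of the flanking gene Mdm1, which encodes a microtubule-binding protein, had pileups of 208, 162 and 177 in divided, undivided and polyclonal cells, and that of the kinase gene Dyrk2 126, 127 and 128.

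Among the regions of these genes called in both CBir1 fractions, the highest ratios of divided over undivided cells lay in a cluster downstream of Ifng. The region 19.4 kb past the start, chr10:118460215-118460849, had a pileup of 43 in divided cells, 6 in undivided cells and 20 in polyclonal cells. The polyclonal value lay between the 2 CBir1 fractions, and the 3 summits lay within 3 bp. Scaled by the lowest background, divided cells had 4.79 times the pileup of undivided cells (2.03 to 13.8), and 0.100% of the 34958 regions called in both had a ratio as high. Undivided cells had 0.321 times the pileup of polyclonal cells (0.106 to 0.830), and divided cells 1.54 times that of polyclonal cells (0.886 to 2.76). The interval of divided over polyclonal includes 1, while the other intervals at this region do not. Scaled by regions called in all 3 libraries instead, divided over polyclonal was 1.80 (1.04 to 3.24), which no longer includes 1.

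The neighbouring region 20.6 kb past the start, chr10:118461420-118461814, had the same order, with a pileup of 36 in divided cells, 7 in undivided cells and 17 in polyclonal cells. Divided cells had 3.44 times the scaled pileup of undivided cells (1.51 to 9.15), a ratio that 0.320% of regions called in both reached. The ratio of undivided over polyclonal cells was 0.441, with an interval that includes 1. The remaining member of the cluster, chr10:118458759-118459173, 17.9 kb past the start, reached 36 fragments (−log10 q 15.0) in divided cells and had no peak in the other fractions. Equal signal there would have given 24.1 fragments in undivided cells, where the lowest pileup called at a like background was 11. At chr10:118468889-118469387, 28.0 kb past the start, the pileup was 28 in divided cells, 11 in undivided cells and 17 in polyclonal cells. The scaled ratio of divided over undivided cells there was 1.70 (0.821 to 3.79), which includes 1, and 2.11 (1.02 to 4.70) when scaled by regions called in all 3 libraries, which does not.

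**Figure D2:**
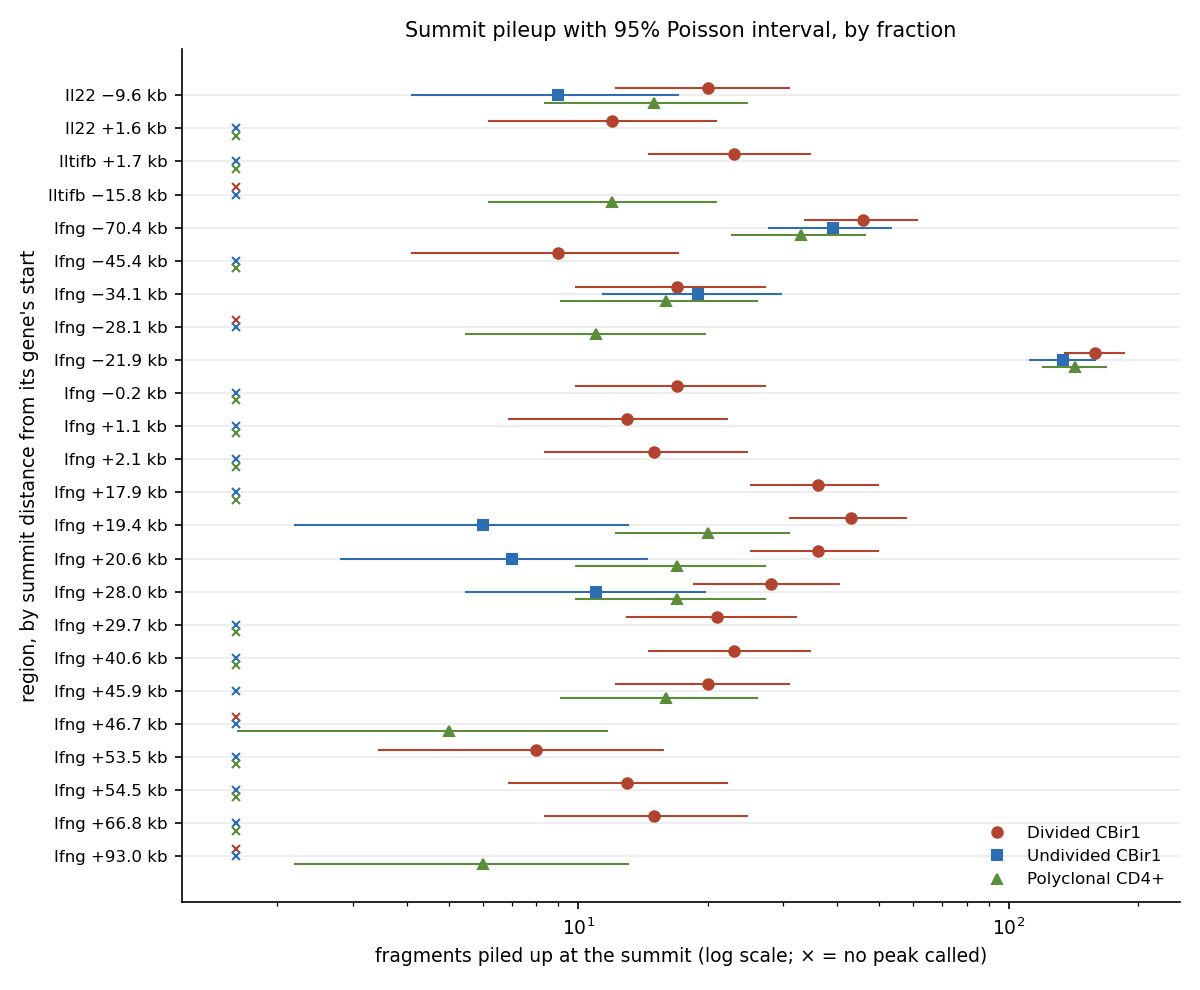
Summit pileup in fragments (log axis) for each of the 24 regions, with 95% Poisson intervals (counting error only) and a cross where no peak was called; regions run from Il22 at the top through Iltifb to downstream of Ifng. The 3 fractions overlap at the 3 upstream Ifng regions called in all of them, and divided cells reach 43 fragments, against 6 in undivided cells, 19.4 kb past the Ifng start.

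The fractions also differed in the local background under the cluster. MACS2 takes the local background as the larger of a genome-wide average and an average over a wider window round the peak, which counts fragments of neighbouring peaks too. It was 4.76, 4.65 and 4.60 times the library's lowest background at the 3 cluster peaks in divided cells. At the 2 of them called in the other fractions, it was 1.00 and 1.00 times in undivided cells, and 2.37 and 2.36 times in polyclonal cells. Divided cells thus had the highest and undivided cells the lowest background there. On the log2 scale the scaled background was 2.22 and 2.20 higher in divided than in undivided cells at the regions 19.4 and 20.6 kb past the start, beside pileup differences of 2.26 and 1.78. Since the deposited fold divides by this background, it was 6.65 in divided cells, 3.87 in undivided cells and 6.88 in polyclonal cells at the region 19.4 kb past the start, a narrower spread than that of the pileups. At the shared peak 21.9 kb upstream, the local background was 6.34, 7.23 and 7.62 times the lowest in divided, undivided and polyclonal cells. At the gene it was 1.56 to 1.59 times the lowest in divided cells.

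**Figure D3:**
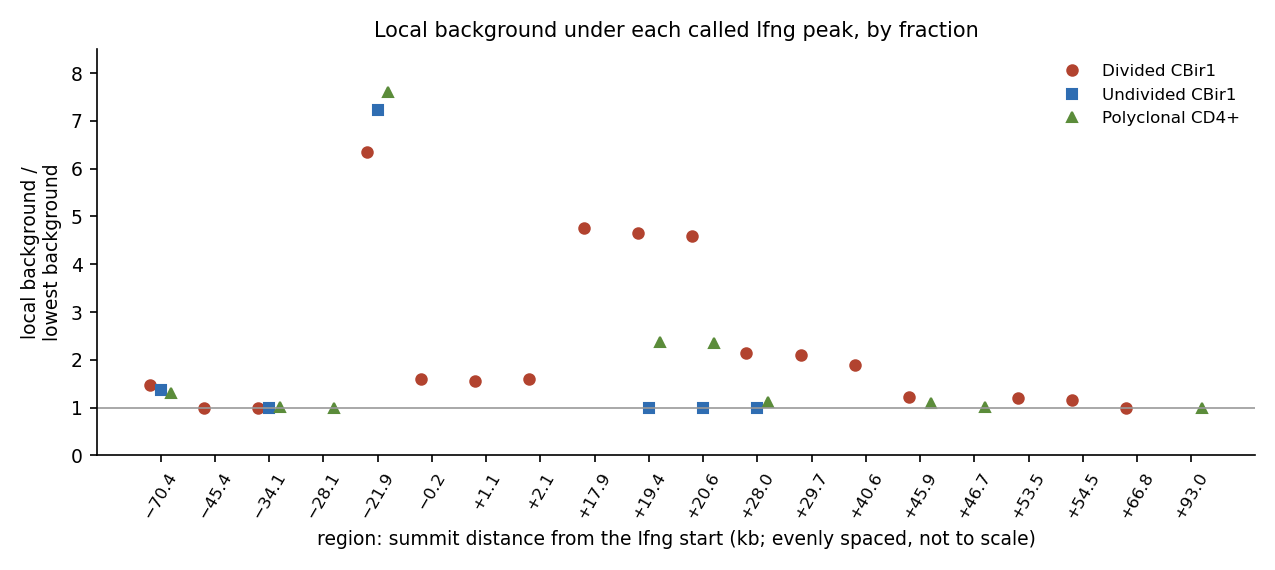
Local background divided by the library's lowest background under each called Ifng peak, by summit distance from the Ifng start in kb (evenly spaced, not to scale); a value of 1 is the library's lowest. Divided cells stand at 4.60 to 4.76 at the 3 peaks from 17.9 to 20.6 kb, where undivided cells stand at 1.00 and polyclonal cells at 2.36 and 2.37.

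Farther downstream lay 8 more regions, up to 93.0 kb from the start, none of them called in undivided cells. The region 45.9 kb past the start, chr10:118486529-118487001, was called in divided cells with a pileup of 20 and in polyclonal cells with a pileup of 16, with summits 1 bp apart. Regions 29.7, 40.6, 53.5, 54.5 and 66.8 kb past the start were called in divided cells alone, with pileups of 21, 23, 8, 13 and 15. Those 46.7 and 93.0 kb past the start were called in polyclonal cells alone, with pileups of 5 and 6 and −log10 q values of 1.51 and 2.37, where the lowest value in that library was 1.30. The regions at 66.8 and 93.0 kb lie inside Ifngas1. In all, 10 of the 12 downstream regions were called in divided cells, 3 in undivided cells and 6 in polyclonal cells. Beside the 47963, 41876 and 44426 peaks for 57457 regions of the whole series, the divided count was not high. The undivided and polyclonal counts were low.

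Il22 and Iltifb each had a region inside the gene that was called in divided cells alone. In Il22 it lay at chr10:118206520-118206827, 1640 bp past the start, and reached 12 fragments (−log10 q 6.97). In Iltifb it lay at chr10:118293154-118293725, 1668 bp past the start, and reached 23 fragments (−log10 q 18.9). Measured from the beginning of the near-identical stretches printed above, the 2 summits lie at 1719 and 1725 bp, a difference of 6 bp. Equal signal would have given 8.02 and 15.4 fragments in undivided cells, where the lowest pileup called at a like background was 5. Neither gene had a region over its start in any fraction.

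Upstream of Il22, 9.6 kb before its start at chr10:118195001-118195534, a region was called in all 3 libraries. Its pileup was 20 in divided cells, 9 in undivided cells and 15 in polyclonal cells. The scaled ratio was 1.49 for divided over undivided cells (0.646 to 3.70), 0.955 for divided over polyclonal cells (0.465 to 2.00) and 0.643 for undivided over polyclonal cells (0.248 to 1.57). All 3 intervals include 1. A region 15.8 kb before the Iltifb start, chr10:118310601-118310911, had a peak of 12 fragments in polyclonal cells alone. Farther from Il22, and assigned by the rule to Mdm1, a region at chr10:118172332-118173060 with its summit 32292 bp before the Il22 start had a pileup of 69 in divided cells, 16 in undivided cells and 27 in polyclonal cells.

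**Figure D4:**
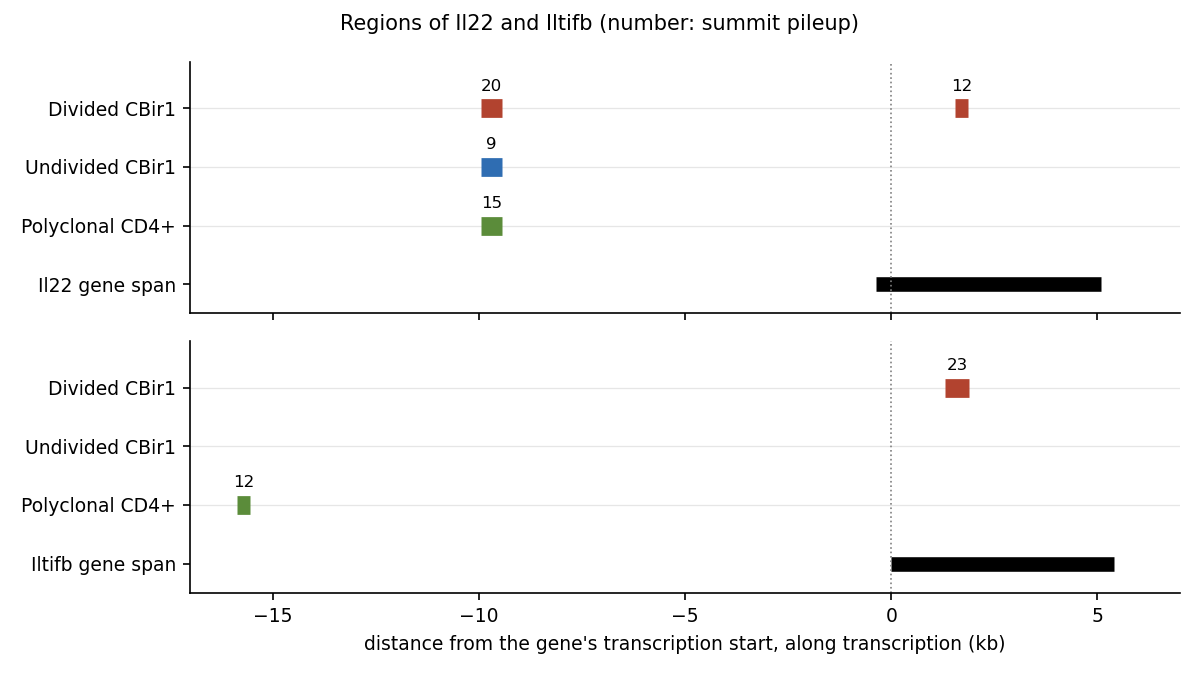
Called regions of Il22 and Iltifb by fraction, along each gene's direction of transcription in kb from its start, with the summit pileup in fragments above each box and the gene span in black. The regions inside the 2 genes, with pileups of 12 and 23, were called in divided cells only.

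Counted as one-sided calls, the comparison of divided with undivided cells asks how the locus differed between CBir1 cells that had and had not proliferated. Of the 20 Ifng regions, 11 (55%) had a peak in divided but not undivided cells, against 21.4% of all regions. None had a peak in undivided but not divided cells, against 10.3% of all regions. Requiring a −log10 q of at least 5 left 9 Ifng regions on the divided side and 0 on the undivided side, where all regions gave 12.4% and 4.94%. Il22 and Iltifb added 1 region each to the divided side and 0 to the undivided side. For each gene this was 1 of 2 regions (50%). Of the 9827 genes with at least 2 regions, 1941 had as high a share of regions with a peak in divided but not undivided cells. At equal signal over background, the pileup expected in undivided cells reached the lowest one called at a like background for all 11 Ifng regions. The margin was small at some. The regions 53.5 kb downstream and 45.4 kb upstream had expected pileups of 5.35 and 6.02, against a lowest called pileup of 5. Counting error alone could have kept such regions from being called.

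At the flanking genes, of 14 Mdm1 regions, 2 had a peak in divided but not undivided cells, and 1 the other way round. Of 20 Dyrk2 regions, these counts were 5 and 3. Of the 202 genes with at least 20 regions, 3, Ifng included, had as high a share of regions with a peak in divided but not undivided cells, and the median share of these genes was 23.3%. By presence over the 3 libraries, the genes most like Ifng were Nfatc2 (Bray-Curtis distance 0.163 over the 7 possible combinations of libraries), Trerf1 (0.20), Gramd1b (0.209) and Tmsb4x (0.209). Nfatc2 had 23 regions, of which 12 were called in divided cells alone and 7 in all 3 libraries.

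The comparison with polyclonal cells sets CBir1 cells beside the recipients' own CD4+ cells of the same nodes. Of the 20 Ifng regions, 10 (50%) had a peak in divided but not polyclonal cells, against 18.3% of all regions, and 3 (15%) in polyclonal but not divided cells, against 11.5%. The polyclonal share is near the background, and 2 of those 3 peaks had pileups of 5 and 6. No Ifng region had a peak in undivided but not polyclonal cells, against 10.3% of all regions, and 4 (20%) had a peak in polyclonal but not undivided cells, against 14.6%. At equal signal over background 1 of those 4, the region 46.7 kb past the start, would have given 4.67 fragments in undivided cells and could not have been called there. The 3 comparisons share libraries and are not independent of each other.

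Where a region was called in both CBir1 fractions and the region lay within the 100 kb limit, divided cells had the higher scaled pileup downstream of Ifng and not upstream. Divided over undivided ratios were 0.788, 0.598 and 0.793 at the 3 shared upstream regions, each with an interval that includes 1, and 4.79, 3.44 and 1.70 at the 3 shared downstream regions, of which the last has an interval that includes 1. Beyond the limit the order was the other way round at the shared regions 158.7, 192.6 and 272.1 kb past the start. Scaled pileups there were 17.4, 98.5 and 23.2 in divided cells, against 34.7, 152 and 60.7 in undivided cells. At 273.4 and 325.2 kb the scaled pileups were 33.9 and 57.9 in divided cells, against 42.1 and 81.7 in undivided cells. The unscaled pileups at these 2 regions were higher in divided cells, 41 and 70 against 34 and 66. At the other shared regions on this side, from 164.5 to 413.7 kb past the start, scaled pileups were also lower in divided cells. Ratios beyond the limit were given no interval and were scaled by the lowest background only. Under that scaling the median over all regions called in both also lay below equality. The median log2 ratio over the 6 Ifng regions was 0.22, against −0.31 over the 34958 regions called in both. The negative median over all regions moves to near 0 (0.0050) when pileups are scaled by the median ratio at regions called in all 3 libraries, and the upstream ratios then become 0.978, 0.742 and 0.984 and the downstream ratios 5.94, 4.26 and 2.11. The median log2 ratio of divided over polyclonal cells was −0.0023 over 7 Ifng regions, against −0.22 over 36741 regions, and that of undivided over polyclonal cells −0.26 over 6 Ifng regions, against 0.10 over 34972 regions.

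**Figure D5:**
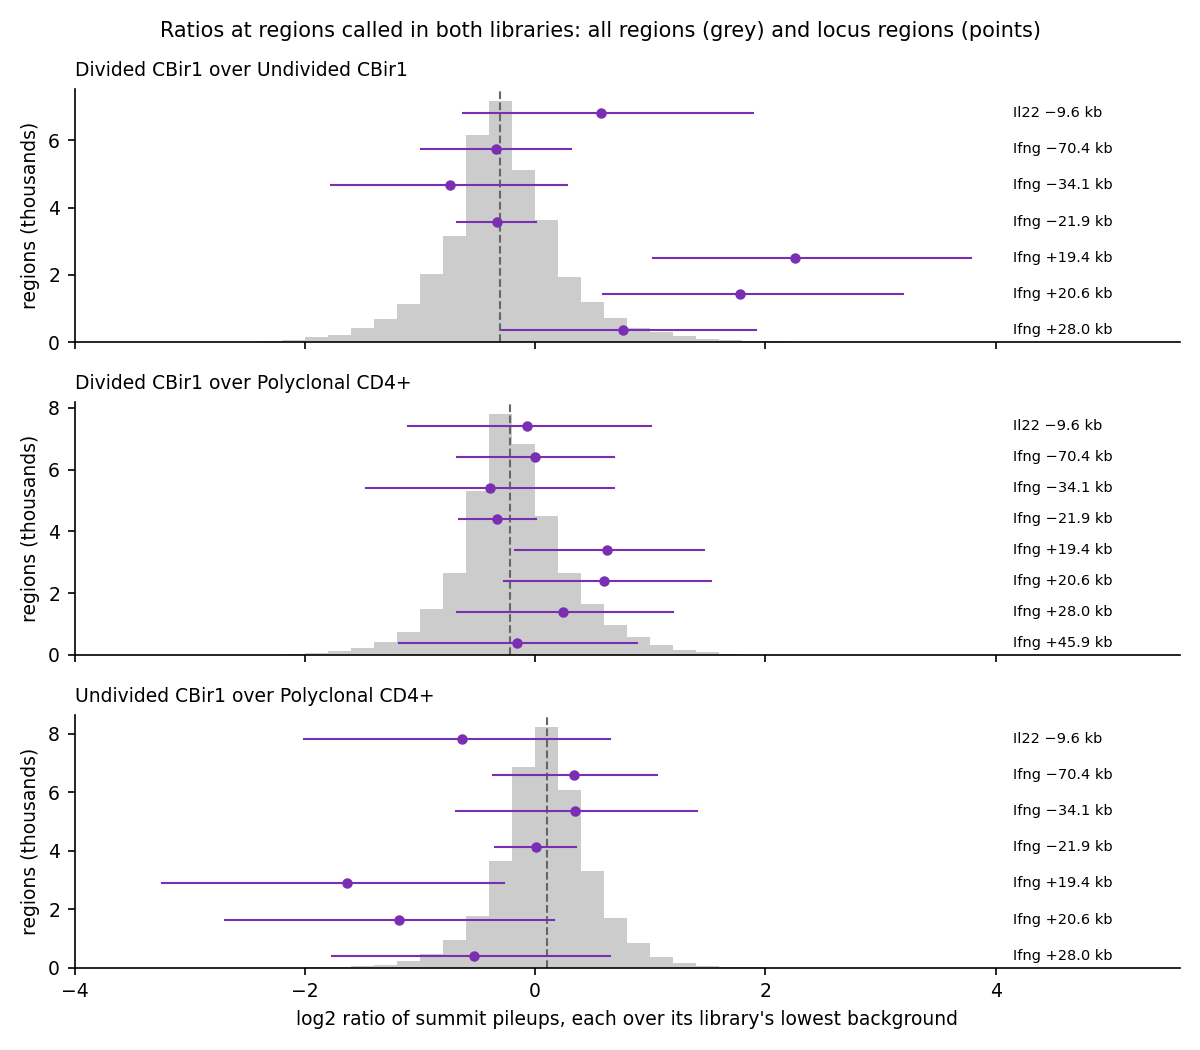
Log2 ratio of summit pileups, each over its library's lowest background, at regions called in both libraries of a pair; grey bars show how all such regions are distributed, the dashed line is their median, and points are Il22 and Ifng regions with 95% Poisson intervals, placed by height only to separate them. For divided over undivided cells the regions 19.4 and 20.6 kb past the Ifng start stand at 2.26 and 1.78, against a median of −0.31 over all regions.

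The boundary of the rule left out further regions on the Ifngas1 side. Just inside it, the polyclonal peak 93.0 kb from the Ifng start lay 88181 bp from the gene span. Just outside it, chr10:118550211-118550639 lay inside Ifngas1 and had a peak of 17 fragments in divided cells alone. The next, chr10:118555202-118555625, was called in divided cells with a pileup of 11 and in polyclonal cells with a pileup of 10. Beside the Ifngas1 start, chr10:118556545-118556768 had a pileup of 7 in divided cells and 18 in polyclonal cells and no peak in undivided cells. These were the 3 nearest regions beyond the limit, and undivided cells had no peak at any of them. Farther toward Dyrk2, undivided cells had peaks too, and at some regions the higher pileup. The pileup was 21 in divided cells, 28 in undivided cells and 24 in polyclonal cells 158.7 kb past the Ifng start, and 119, 123 and 143 in the same order 192.6 kb past it. At 272.1 kb it was 28 in divided cells, 49 in undivided cells and 52 in polyclonal cells. At 202.7 kb undivided cells had a pileup of 11 and polyclonal cells of 10, with no peak in divided cells.

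Genes listed for their action on Ifng and Il22, without separating activators from repressors, were counted by the same rule at a −log10 q of at least 5. Of 24 listed regulating factors and receptors, 23 had a region. Of their 220 regions, 43 were on the divided and 8 on the undivided side, where 12.4% and 4.94% of all regions were. A total of 13 genes had more on the divided and 1, Eomes, more on the undivided side, with a median net count of 1. Over all 14912 genes with a region the median was 0, and 26.4% had more on the divided and 8.56% more on the undivided side. The listed genes held more regions per gene, 220 over 23 genes against 54425 over 14912. More regions leave more room for a net count other than 0, and this was not adjusted for. The largest net count was that of Rora, which encodes a ROR-family receptor active in Th17 cells. Of its 33 regions, 10 were on the divided and 0 on the undivided side. Ahr, a ligand-sensing factor needed for IL-22, and Maf, a regulator of IL-10 and Th17 genes, had 4 against 0 each, of 8 and 7 regions. Tbx21, which encodes T-bet, the defining factor of Th1 cells, had 0 against 0, and Stat4, which transmits IL-12 signals, had 3 against 0.

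The receptors and signalling genes of the 2 cytokines were nearly even between the sides. Of 15 genes, 13 had a region. Of their 98 regions, 9 were on the divided and 8 on the undivided side, where 12.4% and 4.94% of all regions were. More on the divided side was seen for 2 genes (15.4%), where 26.4% of all genes had. More on the undivided side was seen for 2 (15.4%), where 8.56% of all genes had. The median net count was 0. The largest net counts were those of the kinase gene Jak2, with 3 against 0, the interferon-γ receptor gene Ifngr1, with 0 against 2, and Ciita, the activator of MHC class II genes, with 0 against 1. Of 15 other T cell cytokine genes, 13 had a region. Of their 53 regions, 15 were on the divided and 1 on the undivided side, where 12.4% and 4.94% of all regions were. Of these genes, 5 (38.5%) had more on the divided side, where 26.4% of all genes had. None had more on the undivided side, where 8.56% of all genes had, and the median net count was 0. Among these, Il10 had 5 against 0, Il21, a cytokine of follicular helper and Th17 cells, 6 against 1, and the T cell growth factor gene Il2 2 against 0, while Il17a had 0 against 0. The divided library was also the deepest and had more B cell markers with a peak at a gene end than the undivided library, 3 against 1 of 6, and the part of these differences in the counts above was not tested.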

How the data were processed

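ATAC-seq peak lists of 3 sorted fractions, 1 library each, were analysed. Per the submitters' processing notes, tools included MACS2 2.1.0, Bowtie2 2.3.2, Trimmomatic 0.33, cutadapt 1.12, bcl2fastq 2.17, SAMtools and Picard, with build mm10. The sources used here do not state how the transposase offset was treated, the peak threshold or how duplicates were pooled. The deposited lists hold, per peak, a score, a linear ratio (fold over the local background) and −log10 values of p-value and q-value, and the deposited summit lists repeat the −log10 q. The lowest −log10 q was 1.31, 1.30 and 1.30 in divided, undivided and polyclonal cells, close to a q of 0.05. Covered lengths were 29.8, 25.3 and 26.4 Mb. Summit offsets are the authors' own.

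Pileup and background were solved from the fold, taken as (pileup + 1)/(background + 1), and the −log10 p under a Poisson model. For 2 divided, 2 undivided and 3 polyclonal peaks, no whole-number pileup gave back the deposited −log10 p within 0.001. The lowest background is proportional to depth only if all libraries were piled up alike, and the median pileup ratio at regions called in all 3 libraries, 1.21 for divided over undivided and 1.19 for divided over polyclonal cells, is smaller than the background ratios. The RefSeq gene table (GRCm38.p6) held 21887 protein-coding genes. With 1 library per fraction no p-value was computed. Genes named from the lists are the 3 with the largest absolute net count of divided against undivided regions (ties by symbol). Eomes, Tbx21, Stat4 and Il17a are named in addition, after their values were seen, as are the regions outside the rule. The genes, lists and motifs were chosen with earlier results of these data known. Python 3.11.15, pandas 2.3.3, NumPy 2.4.6, SciPy 1.17.1, Biopython 1.88 and matplotlib 3.10.9 were used.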

Additional observations from a re-analysis of the deposited data

How the results depend on the processing

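No paired analysis was possible because each fraction is 1 library, and for the same reason no replicate could be left out. Under a common minimum of pileup over background in both libraries, a restriction to regions high enough to be called in the other library, and merging at an overlap of at least 50% of the shorter peak, each of the 12 one-sided counts tried stayed within 1.5 times its value. The common minimum scaled by shared regions and the restriction were chosen after seeing the data.

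At a −log10 q of at least 10, Ifng regions called in divided, undivided and polyclonal cells were 11, 3 and 6, and Il22 and Iltifb regions called in undivided and polyclonal cells were 0 and 1. One-sided Ifng counts were then 5 (divided, not undivided), 4 (divided, not polyclonal), 0 (polyclonal, not divided) and 1 (polyclonal, not undivided), and those of Il22 and Iltifb together were 1, 1, 0 and 0 in the same order. The 3 peaks at the Ifng gene, with −log10 q of 9.16, 5.65 and 7.29 in divided cells, fall below this cut. With −log10 q set to 5 or more, the polyclonal Ifng counts were 1 (not divided) and 2 (not undivided). Within 20 kb of the gene span, Ifng regions called in divided, undivided and polyclonal cells were 6, 2 and 2, and the one-sided counts were 4, 4, 0 and 0 in the order above. With no distance limit, Ifng regions called in divided, undivided and polyclonal cells were 24, 10 and 19. These settings keep fewer or more regions by construction. The counts in this paragraph have no share of all regions at the same setting beside them, so an excess over that share was not tested.

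The median log2 ratio of divided over polyclonal cells at Ifng regions changed sign to 0.23 when scaled by shared regions, a scaling that raises all ratios of that pair. With the deposited fold in place of the pileup, the log2 ratios of divided over undivided cells at the regions 19.4 and 20.6 kb past the Ifng start were 0.78 and 0.35, since the fold divides by the local background, which was higher in divided cells there. The other 36 of 38 ratios of single Ifng regions stayed within their intervals, but some changed sign. With the deposited fold, log2 ratios of divided over polyclonal cells turned to −0.048, −0.067 and −0.18 at the regions 19.4, 20.6 and 28.0 kb past the start, from 0.62, 0.60 and 0.24, and to 0.076 at the region 70.4 kb upstream. Scaled by shared regions, those of divided over polyclonal cells turned positive 70.4 kb upstream (0.23) and 45.9 kb downstream (0.069), and that of undivided over polyclonal cells turned to −0.077 at the region 21.9 kb upstream. The intervals of these ratios all include equality under the background scaling. Scaled by shared regions, the intervals of divided over polyclonal cells at 19.4 kb and divided over undivided cells at 28.0 kb came to exclude equality. Depth limits calls near 5 fragments, where counting error alone can decide whether a peak is called.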
